A study of Mus musculus with 12 samples.

Results

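The regions described here carried both H3K4me2 and H3K4me3, the di- and trimethylated forms of lysine 4 of histone H3, in vehicle-treated and in S2101-treated C2C12 cells, and no peak of the monomethylated form H3K4me1 in either. They were chosen by the presence and absence of listed peaks: the peaks of all 6 lists were pooled, peaks overlapping by 1 bp or more were merged into regions, and a region held a mark in a treatment when it overlapped a peak of that list. Of 51372 merged regions, 6460 met the rule, and these are called members below. They made up 12.6% of all regions (95% Wilson interval 12.3 to 12.9%) and 55.7% (54.8 to 56.6%) of the 11600 regions with H3K4me2 and H3K4me3 in both treatments. The intervals cover counting error only. Membership itself is a description of the lists and no finding.

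C2C12 is a mouse myoblast line that forms muscle fibres in culture, and S2101 inhibits the histone demethylase LSD1. All cells were moved from growth medium to low-serum differentiation medium, which held either vehicle or 10 µM S2101, and were collected after 48 h, on day 2. The H3K4me1 and H3K4me2 libraries belong to experiment 1 and the H3K4me3 libraries to experiment 2, with 1 library per mark and treatment. No genetic change is named in the labels for any group, and the labels describe the cells of all 6 libraries as differentiating. The 4 inputs and both H3 libraries (2 samples) were not used here. Because each treatment has 1 library per mark, a difference between treatments and a difference between libraries cannot be told apart, and no p-value is given.

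H3K4me3 sits around the starts of active genes, where the COMPASS family of methyltransferases places it. H3K4me1 marks enhancers and the outer flanks of promoters, and H3K4me2 is found at both and commonly flanks the trimethylated core. LSD1 (Kdm1a) takes methyl groups from mono- and dimethylated but not from trimethylated lysine 4, and in muscle precursors it is known to act during differentiation. A region with H3K4me2 and H3K4me3 and without H3K4me1 has the marks of a promoter. That name was not checked against gene starts, since no gene annotation of the build of the files, mm9, was used here.

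The lists hold between 13589 and 40432 peaks, and their read depth is unknown. Each peak has a score, the authors' own value, which ranks peaks within a list; most high H3K4me3 scores stand at a limit of 3100. Fewer reads or weaker enrichment can shorten or split peaks, and the part of this in the results was not tested. The quantity used below is the covered length, the number of bases of a region that lie in peaks of a list.

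The width of members had a median of 2092 bp (quartiles 1632 and 2723 bp) and ran from 295 to 16336 bp. Over all 11600 regions with H3K4me2 and H3K4me3 in both treatments, the median width was 2280 bp. With vehicle, H3K4me2 covered a median of 1962 bp (1448 to 2532 bp) and H3K4me3 a median of 1744 bp (1329 to 2279 bp) of a member. With S2101, H3K4me2 covered a median of 988 bp (660 to 1350 bp) and H3K4me3 a median of 1851 bp (1429 to 2400 bp). Summed over all members, H3K4me2 made up 13.5 Mb (vehicle) and 6.92 Mb (S2101), and H3K4me3 made up 12.1 and 12.9 Mb. The wider of the marks with vehicle was thus H3K4me2, and with S2101 it was H3K4me3.

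The profile of peaks around the centre of vehicle H3K4me3 shows where the S2101 list was shorter. At the centre, 93.8% of members had an H3K4me2 peak with vehicle and 59.0% with S2101. At 1000 bp before the centre, the shares were 51.1% and 19.6%, and at 1500 bp before it they were 18.1% and 5.25%. H3K4me3 stood over the centre in 99.8% of members in each treatment, and at 1000 bp before it in 37.3% with vehicle and 43.0% with S2101. The loss of listed H3K4me2 therefore took in the centre as well as the edges, while H3K4me3 was slightly wider. H3K4me1, which the rule kept out of the regions, was at 1.53% with vehicle and 0.557% with S2101 at 4000 bp before the centre.

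**Figure D1:**
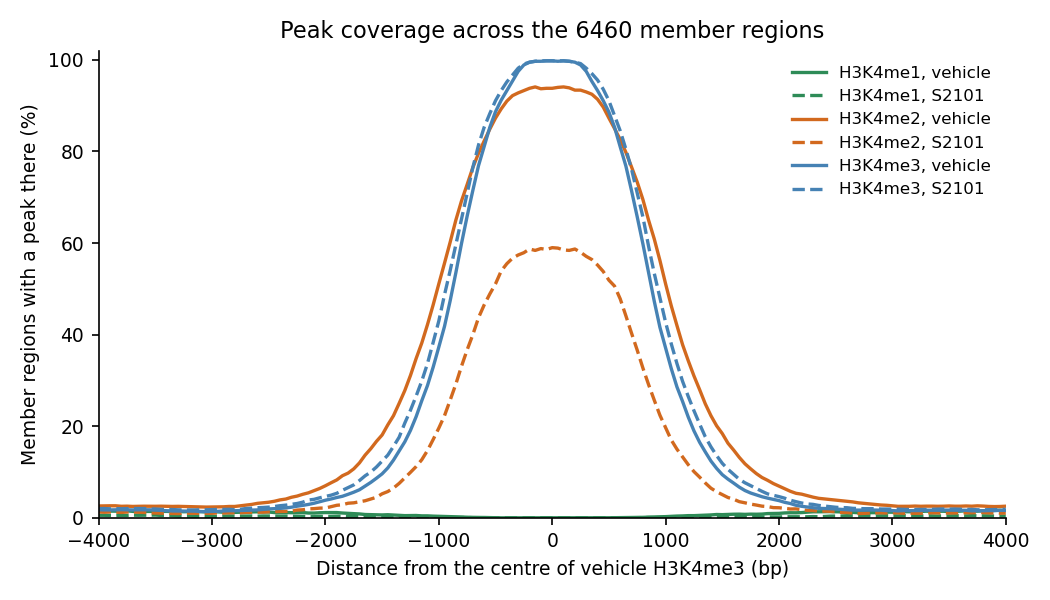
Share of the 6460 members (vertical axis, %) with a peak at each distance from the centre of vehicle H3K4me3 (horizontal axis, bp); solid lines are vehicle and dashed lines S2101, 1 library each. H3K4me2 (orange) is 93.8% at the centre with vehicle and 59.0% with S2101, both H3K4me3 lines (blue) reach 99.8%, and H3K4me1 (green) stays near 0.

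Per region, the H3K4me2 covered length with S2101 was 0.525 times that with vehicle at the median (quartiles 0.401 and 0.637). The medians of the 19 autosomes lay between 0.461 and 0.584 (SD 0.0326), and single members ranged from 0.0662 to 1.61. H3K4me2 was shorter with S2101 in 6435 members and longer in 25. It was shorter by 1.5-fold or more in 5214 members, 80.7% (79.7 to 81.7%), where 77.8% of all 13598 regions with H3K4me2 in both treatments were. The share among members thus lay close to that of H3K4me2 regions in general. It was longer by 1.5-fold or more in 2 members, 0.031%, against 0.0221% of all such regions.

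For H3K4me3 the median ratio was 1.05 (quartiles 0.999 and 1.13), with autosome medians from 1.04 to 1.06 (SD 0.00602). H3K4me3 was longer with S2101 in 4792 members (74.2%), shorter in 1648 and of equal length in 20. Most of these differences were small. It was longer by 1.5-fold or more in 119 members, 1.84% (1.54 to 2.2%), while 3.25% of all 12715 regions with H3K4me3 in both treatments were. It was shorter by 1.5-fold or more in 7 members, 0.108%, against 0.142% of those regions. Large H3K4me3 differences were thus rarer among members than over all H3K4me3 regions.

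The regions most like the members were the 3361 with H3K4me2 and H3K4me3 in both treatments and H3K4me1 with vehicle only, and the 1467 with all marks in both. Their median H3K4me2 ratios were 0.576 and 0.582, and 72.0% (70.5 to 73.5%) and 66.3% (63.8 to 68.6%) of them were shorter by 1.5-fold or more. On the log2 scale, the members' median lay 0.13 below that of the regions with H3K4me1 with vehicle only (difference -0.133). This difference was below 0 on all 19 autosomes, from -0.341 to -0.003. It was smallest on chromosome 16, where both medians were 0.521 to the digits given. Members also had lower vehicle H3K4me2 scores, with a median of 712 against 992 and 1223 in those groups. Among regions whose vehicle H3K4me2 score was 500 to 1000, a range chosen after the values were seen, the difference was -0.064, from medians of 0.509 in 3105 members and 0.532 in 1358 regions with H3K4me1. Among regions with 1000 to 2000 bp of vehicle H3K4me3 it was -0.163. The H3K4me3 median ratios were 1.06 and 1.07 in the regions with H3K4me1, next to 1.05 in members.

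**Figure D2:**
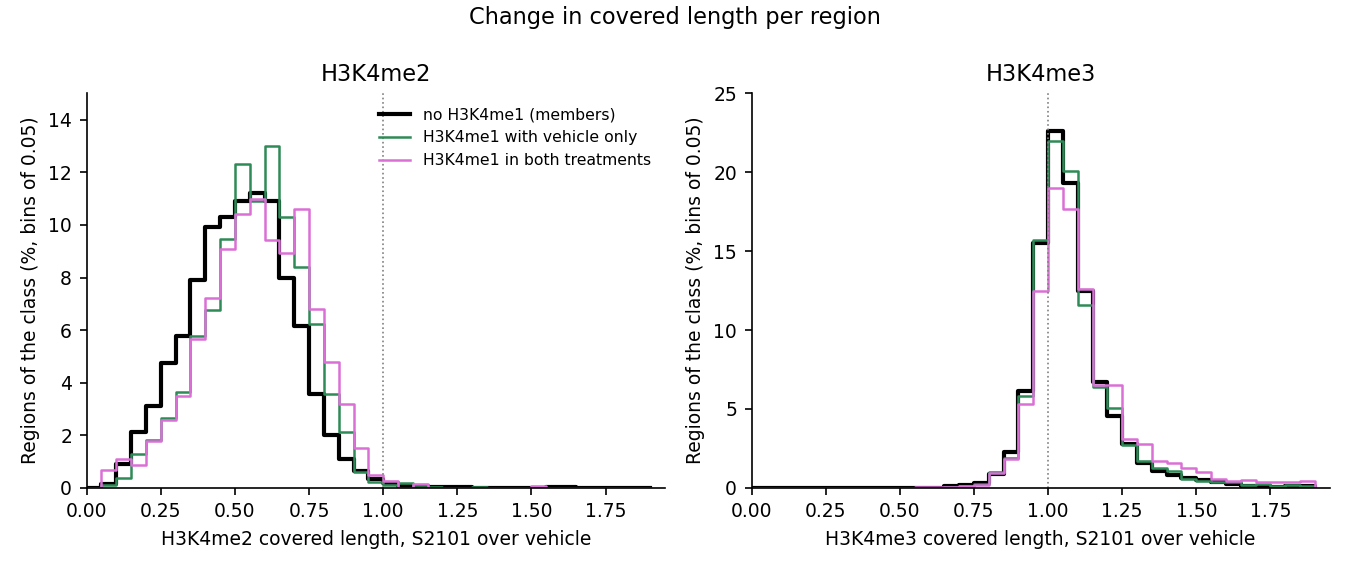
Covered length with S2101 over that with vehicle (horizontal axis) and the share of regions in bins of 0.05 (vertical axis, %), for H3K4me2 on the left and H3K4me3 on the right; black lines are members, green and pink lines the regions with H3K4me1, and ratios of 1.95 or more (15 members, H3K4me3 only) are not drawn. The members' H3K4me2 medians sit at 0.525, left of 0.576 and 0.582, while the H3K4me3 curves lie close together just right of 1.

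The outlines of the marks changed order with treatment. With vehicle, H3K4me2 reached beyond H3K4me3 on both sides in 4168 members (64.5%), on 1 side in 2041 (31.6%) and on neither in 251 (3.89%). With S2101, it did so on both sides in 57 (0.882%) and on 1 side in 887 (13.7%), and in 5516 members (85.4%) it lay inside H3K4me3 on both sides. At the side where it reached farther, the median overhang with vehicle was 222 bp, and with S2101 it was -126 bp, which means that H3K4me2 ended short of the edge of H3K4me3. Among regions with H3K4me1 with vehicle only, 75.6% (74.1 to 77.0%) had H3K4me2 inside H3K4me3 with S2101, and among those with all marks 59.9% (57.3 to 62.3%). Both shares were below the 85.4% (84.5 to 86.2%) of members. A difference in that direction was already there with vehicle, where 79.9% and 82.7% of those regions had H3K4me2 beyond H3K4me3 on both sides, and 1.13% and 0.477% had it inside.

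Counted in bases, 83.1% of vehicle H3K4me2 and 98.5% of S2101 H3K4me2 lay under H3K4me3 of the same treatment. In the other direction, H3K4me2 lay over 92.8% of the H3K4me3 bases with vehicle and over 53.0% with S2101. Of the vehicle H3K4me2 bases, 50.5% were listed again with S2101, made up of 59.0% of those under vehicle H3K4me3 and 8.76% of the 2.29 Mb beyond it. The flanks were thus listed again far less often than the core. The same order held in regions with H3K4me1 with vehicle only (66.9% under and 13.6% beyond) and in those with all marks (70.9% and 21.1%). A peak that shortens at its ends loses flank bases first, and the part of that in these shares was not tested. Almost all S2101 H3K4me2, 98.7%, lay inside vehicle H3K4me2, so the S2101 list added few new positions in members. For H3K4me3, 97.7% of the vehicle bases were listed again. S2101 added 1.04 Mb beyond the vehicle H3K4me3 outline, 8.09% of its bases, and 75.4% of these additions lay in vehicle H3K4me2.

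H3K4me2 was also more often interrupted with S2101. With vehicle, 4915 members (76.1%) held 1 H3K4me2 peak, 1487 (23.0%) held 2 and 58 held 3 or more. With S2101, 2808 (43.5%) held 1, 2861 (44.3%) held 2 and 791 (12.2%) held 3 or more. Members were in fewer pieces than similar regions: 3 or more S2101 peaks were held by 16.7% (16.0 to 17.3%) of all 11600 regions with H3K4me2 and H3K4me3 in both treatments, by 19.8% of those with H3K4me1 with vehicle only and by 28.2% of those with all marks. Of the 4915 members with 1 vehicle peak, 2519 kept 1 peak, 1942 (39.5%) had 2 and 454 (9.24%) had 3 or more with S2101. The share that kept 1 peak was 51.3% (49.9 to 52.6%) in members. It was 43.1% (41.2 to 45.1%) in regions with H3K4me1 with vehicle only and 41.7% (38.8 to 44.6%) in those with all marks. Members were also narrower, with a median width of 2092 bp against 2454 and 3038 bp in those groups. The width of the regions in those groups includes their H3K4me1 peaks. The numbers of peaks were not compared at equal width. H3K4me3 stayed in 1 piece in 96.4% of members with vehicle and in 97.9% with S2101.

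In the members with 2 H3K4me2 peaks, the gap between the peaks lay near the middle of H3K4me3. With S2101 the gap had a median of 352 bp (quartiles 147 and 636 bp), its centre lay a median of 166 bp from the centre of vehicle H3K4me3, and 51.0% (49.2 to 52.9%) of the 2861 gaps held that centre. With vehicle the gap had a median of 146 bp and its centre lay a median of 240.0 bp away. Of the 1487 vehicle gaps, 22.9% (20.9 to 25.1%) held the centre. A wider gap holds a given point more readily, and the part of gap width in these shares was not tested. H3K4me3 ran without a break across the gap in most members: 97.7% of the S2101 gaps lay wholly under S2101 H3K4me3. Vehicle H3K4me2 lay over the whole gap in 1907 of the 2861, 66.7%.

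Members with 2 peaks in both treatments numbered 899, and in 833 of them (92.7%) the gaps of the treatments overlapped. Those S2101 gaps were wider than the vehicle gaps by a median of 482 bp (quartiles 325 and 705 bp). These widths were taken over the 833 overlapping pairs, and since nearly all S2101 H3K4me2 lay inside vehicle H3K4me2, shorter peaks leave a wider gap there by construction. Members with 1 S2101 peak could also lack H3K4me2 at the centre, since 775 of 2808 (27.6%) had it wholly on 1 side of the centre, against 43 of 4915 (0.875%) with vehicle. Among regions with H3K4me1 with vehicle only, 44.6% (42.1 to 47.1%) of the S2101 gaps held the centre and 14.7% (12.8 to 16.9%) of the lone S2101 peaks lay on 1 side. Those shares were lower than the members'. S2101 H3K4me2 was shorter in members, with a median of 988 bp against 1291 bp, and the part of its length in these shares was not tested. With vehicle, 21.0% (18.3 to 23.9%) of the gaps in those regions held the centre, next to 22.9% in members. These intervals cover counting error only, and all regions share the same libraries.

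**Figure D3:**
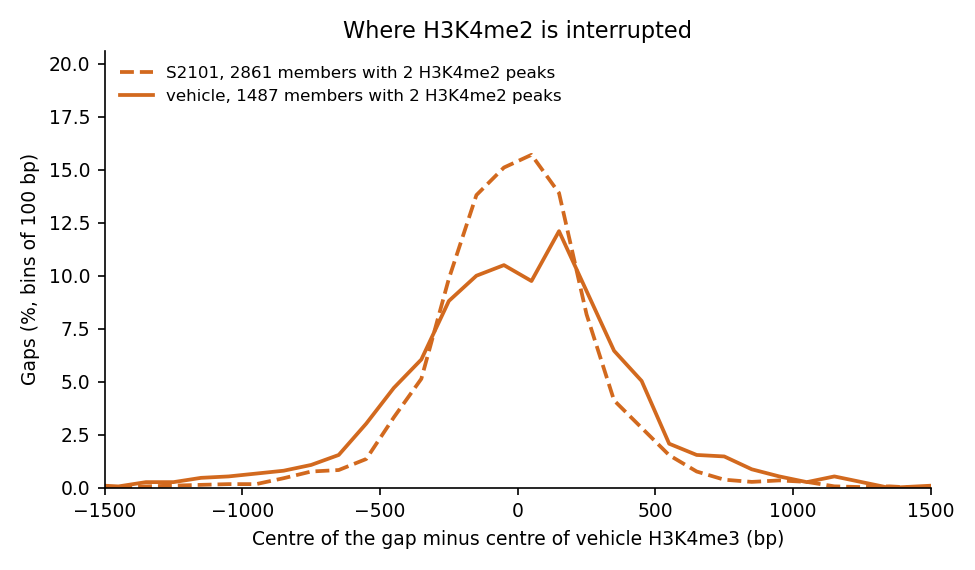
Position of the gap between the H3K4me2 peaks relative to the centre of vehicle H3K4me3 (horizontal axis, bp) and the share of gaps in bins of 100 bp (vertical axis, %), in members with 2 H3K4me2 peaks; the dashed line is S2101 (2861 gaps) and the solid line vehicle (1487 gaps). The S2101 line is highest, 15.7%, in the bin just after the centre, and the vehicle line is lower and wider, at 9.75% there.

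Width and score separated the members further. With less than 1000 bp of vehicle H3K4me3 (738 members), the H3K4me2 ratio had a median of 0.54 and 11.2% held 2 or more S2101 H3K4me2 peaks. With 1500 bp or more but under 2000 bp (1887 members), the ratio was 0.528 and the share 61.6%, and with 3000 bp or more (536 members) they were 0.492 and 91.0%. The wider the H3K4me3, the more often H3K4me2 was in pieces. The H3K4me2 ratio was highest, 0.546, at 1000 to under 1500 bp and lowest, 0.492, in the widest group. The H3K4me3 ratio fell from 1.17 in the narrowest of these groups to 1.03 in the widest. In bp, the median H3K4me3 length went from 752 to 892 in the narrowest group and from 3500 to 3657 in the widest. The groups were formed by vehicle H3K4me3 length, the denominator of this ratio, and the part of that in the fall was not tested. In 5 groups of equal size by vehicle H3K4me2 score, the H3K4me2 ratio had medians of 0.472, 0.485, 0.508, 0.542 and 0.598 from the lowest to the highest. H3K4me2 of higher score thus kept more of its length at the median, but the link across single members was weak (rho 0.24, r 0.23).

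The lengths of the marks went together across members with vehicle (Spearman's rho 0.89, Pearson's r 0.91, over 6460 members) and less closely with S2101 (rho 0.64, r 0.71). Their changes did not: the H3K4me2 ratio and the H3K4me3 ratio had a rho of 0.03 and an r of 0.03. These are descriptions over regions that share the same libraries. The vehicle H3K4me3 score stood at the limit or above in 4170 members (64.6%) and the S2101 score in 4671 (72.3%), so scores do not rank most members for H3K4me3. The H3K4me2 ratio had a median of 0.518 in those at the vehicle limit and 0.54 in the other 2290.

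The member with the widest vehicle H3K4me3 lay on chromosome 6 (chr6:52169147-52185482, 16336 bp). Vehicle H3K4me2 ran over it as 1 peak of 16336 bp, and S2101 H3K4me2 lay in 13 peaks that covered 14141 bp, a ratio of 0.866. The vehicle list had 13814 bp of H3K4me3 there in 4 peaks, and the S2101 list 14213 bp in 2. This member had the largest number of S2101 H3K4me2 peaks of any, and kept more of its H3K4me2 length than the upper quartile of members. A vehicle H3K4me1 peak lay 602 bp away from it.

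The next widest behaved differently. At chr1:148339243-148350614, H3K4me3 covered 10066 bp in the vehicle list and 10719 bp in the S2101 list, but H3K4me2 covered 5431 and 997 bp, a ratio of 0.184. At chr5:58105082-58116192, H3K4me2 went from 11111 to 6079 bp, at chr17:34253078-34261420 from 8173 bp in 3 peaks to 4535 bp in 9, and at chr11:6368029-6376906 from 8651 to 3686 bp. H3K4me3 in those regions was 9005, 8155 and 7941 bp with vehicle and 9711, 8111 and 8859 bp with S2101. Among these 5 widest members the H3K4me2 ratio thus ran from 0.184 to 0.866 while that of H3K4me3 stayed between 0.995 and 1.12. Other members with many S2101 H3K4me2 peaks were chr18:84253566-84262181 and chr13:23621638-23628084 with 8 each and chr11:18913455-18921354 with 7, where vehicle had 2, 1 and 1.

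The lowest H3K4me2 ratio among the 6008 members with 1000 bp or more of vehicle H3K4me2 was 0.0662, at chr1:170358517-170363557. There the vehicle list had 4106 bp of H3K4me2 in 2 peaks and the S2101 list 272 bp in 1 peak, with a score of 117.66, close to the lowest score in the S2101 list, 100.02. H3K4me3 in the same region covered 4069 and 4736 bp. The next lowest were chr19:28083292-28087299 (3929 to 276 bp), chrX:71488199-71492738 (3452 to 269 bp), chr7:88091061-88093436 (2376 to 208 bp) and chr13:96143400-96146084 (2685 to 236 bp). Their H3K4me3 ratios were between 0.915 and 1.04. Listed H3K4me2 was almost gone from these members while H3K4me3 was near its vehicle length.

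At the other end, H3K4me2 was longer with S2101 by at most 1.27-fold in the members with 1000 bp or more of vehicle H3K4me2. That member was chr4:41448324-41450457, where 1 peak of 1386 bp with vehicle became 2 peaks of 1760.0 bp in all. Its H3K4me2 score nonetheless was 885.96 in the vehicle list and 341.88 in the S2101 list, values that are not on a common scale. The 4 that follow, at chr18:80402915-80405047, chr19:46412024-46413694, chr4:21703010-21704537 and chr15:36093843-36095136, had ratios of 1.14, 1.14, 1.11 and 1.07. Gains were few and small beside the losses.

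**Figure D4:**
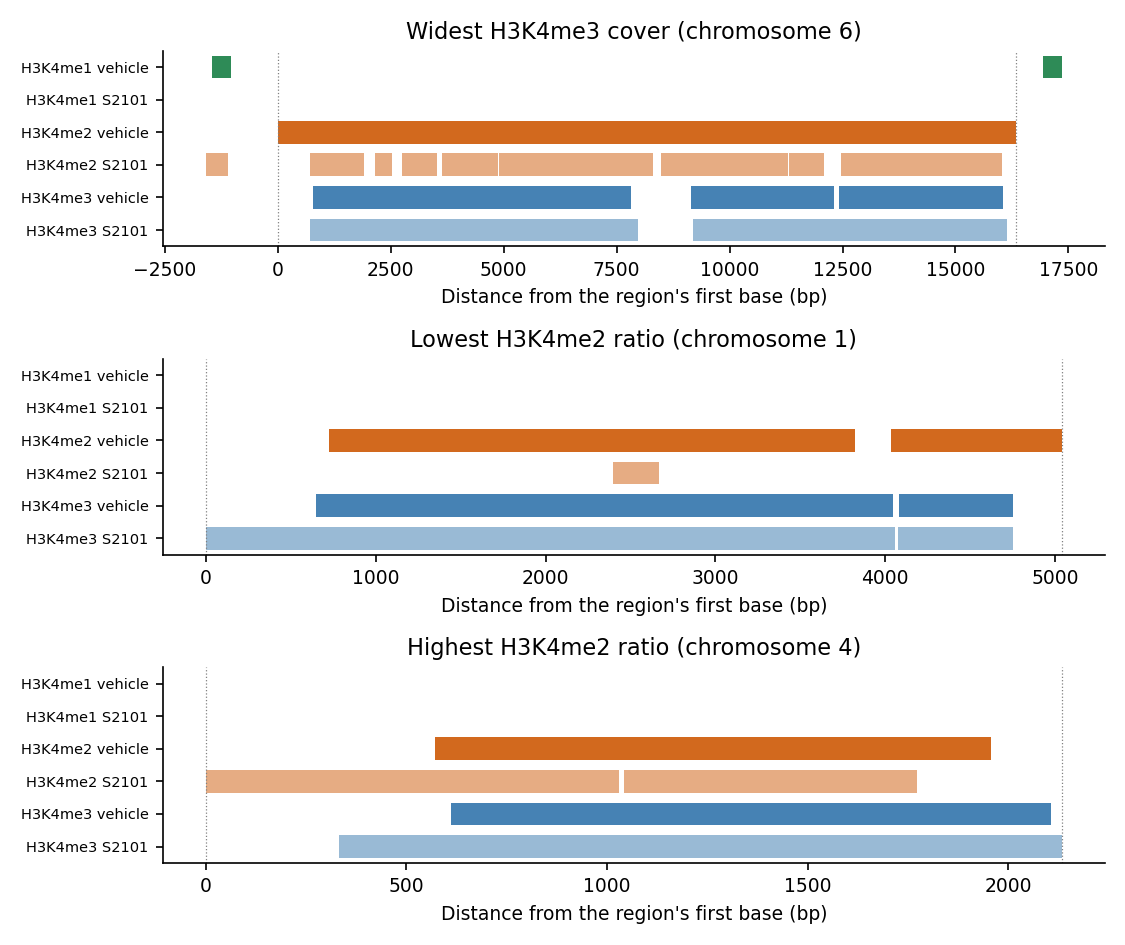
Peaks of each list (rows; full colour vehicle, pale colour S2101) along 3 members, by distance from the member's first base (horizontal axis, bp; dotted lines mark its ends): the widest by H3K4me3, the one with the lowest H3K4me2 ratio and the one with the highest. In the first, 1 vehicle H3K4me2 peak of 16336 bp faces 13 S2101 peaks, some parted by gaps too narrow to see at this scale; in the second, 4106 bp face 272 bp; in the last, 1386 bp face 1760.0 bp.

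The largest H3K4me3 ratio in members with 1000 bp or more of vehicle H3K4me3 was at chr8:70472197-70474883, where H3K4me3 went from 1102 to 2149 bp (ratio 1.95) and H3K4me2 from 2220.0 to 800.0 bp. At chr16:45095995-45099407 H3K4me3 went from 1867 to 3413 bp and at chr9:5344988-5348337 from 1822 to 3308 bp, with H3K4me2 ratios of 0.147 and 0.237. At chr7:20213318-20215468 and chr16:20423876-20427106 the H3K4me3 ratios were 1.73 and 1.71. All 5 were shorter in H3K4me2, with ratios of at most 0.607, as were 99.6% of all members. The lowest ratio was at chr19:38129384-38131162, where H3K4me3 went from 1779 to 967 bp (ratio 0.544) and H3K4me2 from 1429 to 562 bp, and next came chr9:65737632-65739324 with 1693 and 946 bp of H3K4me3. The other 3 of the 5 lowest, at chr6:39820133-39822468, chr1:162124670-162126528 and chr19:45375322-45376886, had H3K4me3 ratios of 0.658, 0.711 and 0.714.

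The nearest vehicle H3K4me1 peak lay a median of 29335 bp from a member (quartiles 8861 and 80446 bp), and the nearest S2101 H3K4me1 peak a median of 65013 bp. It was within 1000 bp in 316 members with vehicle (4.89%) and in 138 with S2101 (2.14%), and within 5000 bp in 16.6% and 8.54%. The vehicle H3K4me1 list held 40432 peaks and the S2101 list 20664, and a list with fewer peaks gives longer distances. Most members therefore had no listed H3K4me1 peak within 5000 bp. The rule kept out regions that overlap H3K4me1, and these distances were not set beside those of other regions. The 1209 members with an H3K4me1 peak of either treatment within 5000 bp had a median H3K4me2 ratio of 0.532, and the other 5251 one of 0.524. Closeness to H3K4me1 thus went with hardly any difference in the ratio of listed H3K4me2. The median vehicle H3K4me2 score was 806 in the near group and 691 in the other, and the ratios were not compared at equal score. The nearest other region with H3K4me3 in both treatments lay a median of 35446 bp away and was itself a member in 57.1% (55.9 to 58.3%). Members made up 50.8% of all regions with H3K4me3 in both treatments. For regions with H3K4me2 and H3K4me3 in both treatments and H3K4me1, the nearest was a member in 41.9% (40.6 to 43.3%).

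At the edge of the rule, the nearest members stood a few bases from an H3K4me1 peak: chr9:51855487-51858474 at 2 bp, chr13:32941795-32943338 at 7 bp and chr5:21291733-21294262 at 8 bp. Their H3K4me2 went from 2838 to 972 bp, from 1544 to 838 bp and from 2530.0 to 1120.0 bp. Outside the rule, the regions with the fewest H3K4me1 bases were chr15:75670798-75673339 with 186 bp, chr11:78348122-78351503 with 196 bp and chr11:121065084-121066788 with 203 bp. The first had H3K4me1 with vehicle only and those on chromosome 11 with S2101 only. In these regions H3K4me2 went from 2343 to 1182 bp, from 3326 to 1742 bp and from 1667 to 1147 bp. The smallest overlaps with H3K4me1 were 1 bp at chr5:31260157-31264191, 4 bp at chr15:81685513-81691585 and 5 bp at chr10:67737901-67744407. Their H3K4me2 ratios were 0.442, 0.736 and 0.582. The other bound of the rule was the presence of S2101 H3K4me2: 630 regions met every condition except that one, and had a median vehicle H3K4me2 length of 1064 bp and score of 231, next to 1962 bp and 712 in members.

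Members were spread unevenly over the chromosomes. Of the regions with H3K4me3 in both treatments, members made up 23.3% (19.9 to 27.0%) on chromosome 15, 38.3% on chromosome 10, 64.2% (61.0 to 67.2%) on chromosome 7 and 65.3% (60.5 to 69.8%) on chromosome 16. On chromosome X they were 149 of 403, 37.0% (32.4 to 41.8%). The conditions of the rule bore on these chromosomes differently. On X, 155 of the 403 regions had H3K4me2 in both treatments (38.5%), against 85.7% to 96.5% on the autosomes, and 149 of those 155 (96.1%) lacked H3K4me1. On chromosome 15, 527 of 546 had H3K4me2 in both treatments, and 127 of those 527 (24.1%) lacked H3K4me1. Chromosome 15 had 5.7 vehicle H3K4me1 peaks per region with H3K4me3 in both treatments, chromosome 7 had 1.86 and chromosome X 0.191. The rule used these peaks, so the shares describe the choice of members, and what sets the number of peaks on a chromosome was not tested.

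The H3K4me2 lengths of members also differed by chromosome. On chromosome X, the members' median H3K4me2 lengths were 1553 bp (vehicle) and 459 bp (S2101), with a median ratio of 0.351, below that of every autosome. These are the X regions that had H3K4me2 in both treatments, and most X regions with H3K4me3 did not. The H3K4me3 of members there covered 1753 bp with vehicle and had a ratio of 1.06, as on the autosomes. The vehicle H3K4me2 score had a median of 382 on X, and 30.2% of members there were at the vehicle H3K4me3 limit. On chromosome 7, the next lowest in score, the score was 555, the ratio 0.461 and the share at the limit 52.9%. On chromosome 15 the score was 898 and the ratio 0.582, and on chromosome 19 they were 816 and 0.584. The chromosome medians of score and ratio had an r of 0.93 and a rho of 0.81 over 20 chromosomes, and an r of 0.76 without chromosomes 7 and X. Over the 6460 single members the link was weak, with an r of 0.23 and a rho of 0.24. These are descriptions over chromosomes and regions that share the same libraries. The number of copies of each chromosome in these cells was not tested.

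All 5 members farthest from any H3K4me1 peak lay on chromosome X, between chrX:33428360-33430270, 11911462 bp away, and chrX:35953139-35955405, 9386327 bp away. At the first, H3K4me2 went from 1461 to 350.0 bp and H3K4me3 from 1718 to 1911 bp. At chrX:33867826-33870524 H3K4me2 went from 2279 to 1456 bp and at chrX:34528325-34529980 from 1472 to 1044 bp, and the ratios of 0.639 and 0.709 were above the median of X. At chrX:35916166-35919081 and at the last of the 5 the ratios were 0.404 and 0.226. The H3K4me2 ratios of these 5 members thus ran from 0.226 to 0.709, and those of all members from 0.0662 to 1.61. All 5 lie in the same part of chromosome X.

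**Figure D5:**
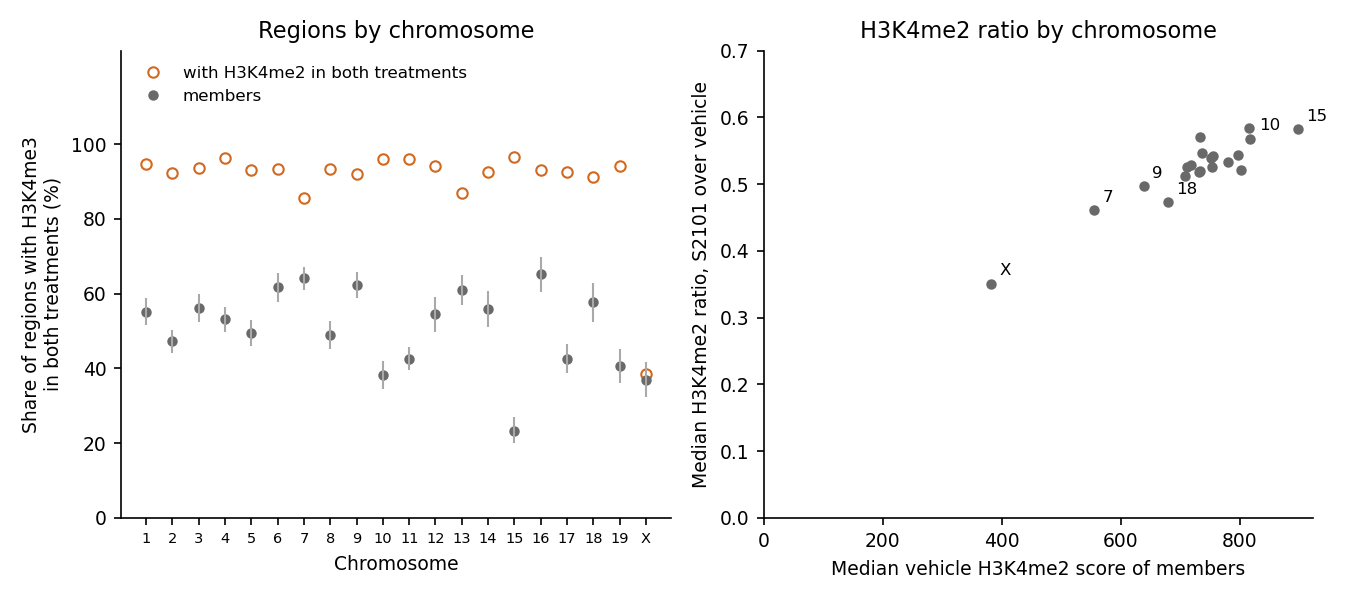
Left, share of the regions with H3K4me3 in both treatments (vertical axis, %) that also had H3K4me2 in both (open circles) and that were members (filled circles; bars are 95% Wilson intervals), by chromosome (horizontal axis); right, the members' median H3K4me2 ratio against their median vehicle H3K4me2 score, 1 point per chromosome with 6 labelled. Chromosome X lies at 38.5% and 37.0% on the left and at a ratio of 0.351 with a score of 382 on the right, and chromosome 15 at 96.5% and 23.3% on the left and at 0.582 with 898 on the right.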

How the data were processed

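Peak lists of H3K4me1, H3K4me2 and H3K4me3, vehicle and S2101, were analysed, 1 library each. Per the file headers, the authors called peaks with MACS within Galaxy, and the deposited score is the caller's value per peak; the headers do not name its quantity. Bowtie2, deepTools and build mm9 are named in the submitters' processing notes. The sources used here give no caller settings, inputs or depth. Peaks of the 6 lists were merged at 1 bp overlap, without a filter, and classified by the lists they overlap. Covered lengths, peak numbers, gaps and distances were computed in Python (3.11.15) with pandas 2.3.3, numpy 2.4.6 and scipy 1.17.1, drawn with matplotlib 3.10.9, and tested on simulated data and against bedtools 2.31.1. Coordinates are 1-based. Shares carry 95% Wilson intervals; spread is over 19 autosomes, which are not replicates. A length was called lower or higher at 1.5-fold. Named regions are the 5 members with the widest vehicle H3K4me3 and the 5 lowest and 5 highest ratios of each mark (1000 bp or more with vehicle). Also named are the 5 with most S2101 H3K4me2 peaks and the 5 farthest from and 3 nearest to H3K4me1. Outside the rule, they are the 3 regions with the fewest H3K4me1 bases and the 3 with the smallest overlap with H3K4me1. Members and lists were chosen with earlier results of these data known. Other scores, merging distances, overlaps, spans and subsets were tried as alternatives.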

Additional observations from a re-analysis of the deposited data

How the results depend on the processing

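The number of members, 6460, was 7829 with scores of 200 or more in every list, 8435 with H3K4me1 lists of equal length, 5975 when peaks within 1000 bp were merged, 6086 without H3K4me1 within 1000 bp and 6451 when 200 bp or more of a mark were asked for. Of the members, 5201 overlapped a member at the stricter score. The median H3K4me2 ratio, 0.525, was 0.657 for the span from the first to the last peak, 0.488 in members with 1 peak in each treatment and 0.351 on chromosome X, a subset chosen after seeing the data. The median H3K4me3 ratio was 1.06 on chromosome X. No other alternative moved either ratio by more than 1 SD over the autosomes, and none turned its direction. The H3K4me2 difference between members and regions with H3K4me1 with vehicle only ran from -0.163 to -0.064 over the alternatives; autosomes without chromosome 15 and the score range were added after seeing the data. Sequence, gene annotation and gene list counts were not run, since no mm9 genome or annotation was used here. No paired analysis was possible because each mark and treatment has 1 library. Depth is unknown, so shorter H3K4me2 peaks with S2101 were not separated from a library with fewer reads or weaker enrichment.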
